A study of Mus musculus with 6 samples.

Results

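The cells described here were a Sfrp1 Epha7 population of mouse limb mesenchyme after 2 days in culture. They were selected on UMI counts (unique molecular identifiers, 1 per captured RNA molecule) of 3 genes. A cell was kept when it held at least 2 UMIs of Sfrp1, at least 1 UMI of Epha7 and under 2 UMIs of Acan, and such cells are called gate-positive below. Of 18691 filtered cells at Day 2, 1810 were gate-positive, 1080 of 8949 in library A and 730 of 9742 in library B. The 6 libraries of the series held 54126 filtered cells in all.

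The cultures, named digits in a dish (DID), were grown to study hand and foot development outside the embryo. Distal forelimb mesenchyme of wild-type CD-1 mouse embryos at E11.5 was pooled, dissociated and cultured, with no treatment given. Droplet 3' RNA libraries were made at Day 2, Day 7 and Day 10, each from 2 independent cultures, A and B. All comparisons below are therefore between sets of cells of the same 2 Day 2 cultures, or between whole cultures of different age, and each p-value rests on 2 libraries per time point. The embryos of a culture were pooled, so the spread between animals was not measured.

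Sfrp1 encodes a secreted Frizzled-related protein that binds Wnt ligands outside the cell and is best known as a Wnt antagonist. Wnt ligands otherwise bind Frizzled and LRP receptors, and in the limb bud canonical Wnt signalling from the ectoderm keeps the outer mesenchyme out of cartilage. Epha7 encodes a receptor tyrosine kinase for ephrin-A ligands, which are held on neighbouring cells, and Eph signalling is known for sorting cells and for the joining of cells into condensations. Acan encodes aggrecan, the main proteoglycan of cartilage. Lum encodes lumican, a small leucine-rich proteoglycan of fibrous matrix, and Pkdcc encodes a secreted kinase needed for the growth of long bones.

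In GRCm38, Sfrp1 lies on chromosome 8 from 23411502 to 23449632. Its level in CPM, the UMI counts of a gene scaled to the summed UMIs of the class, was 126 in gate-positive cells of library A and 122 in those of B, against 41.1 and 38.2 in the other cells. Epha7 stood at 73.3 and 76.8 CPM against 21.4 and 24.1, and Acan at 3.97 and 3.90 CPM in the gate-positive cells of A and B. These 3 genes chose the cells, so their levels are a description. Sfrp1 was at exactly 2 UMIs in 36.8% and 38.4% of them, Epha7 at exactly 1 UMI in 47.8% of them in both libraries, and Acan at 0 in 88.1% and 87.8%.

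Both further markers were higher in the gate-positive cells of each library. Pkdcc stood at 188.7 CPM in A and 189.4 CPM in B, against 90.1 and 92.7 CPM in the other cells. Lum stood at 35.9 and 38.7 CPM against 26.5 and 28.3, and only 31.5% and 30.7% of the gate-positive cells held a Lum UMI. Lum was not particular to the gate-positive cells: in plain CPM, cells that met both other limits but had 2 or more Acan UMIs held it at 79.5 and 73.5 CPM, and members with 1 Acan UMI at 74.03 and 55.2 CPM. The name mesenchyme was checked against Prrx1, a transcription factor of limb mesenchyme, at 578 and 617 CPM in gate-positive cells against 460 and 474 CPM in the other cells. A Prrx1 UMI was found in 96.1% and 97.0% of gate-positive cells and in 82.7% and 83.0% of the other, shallower cells.

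RNA free in the droplets can place UMIs in cells that do not express a gene, so the shares were also taken in muscle-lineage cells, those with at least 2 UMIs of Myod1 (334 and 195 cells, median 25486 and 30191 UMIs). A Sfrp1 UMI was found in 11.4% and 10.3% of these, against 49.1% and 36.2% of all filtered cells, whose median depths were 19463 and 12899 UMIs. An Epha7 UMI was found in 11.1% and 11.3% of the Myod1 cells against 35.3% and 28.04% of all. For Pkdcc the Myod1 cells gave 54.5% and 50.8% and all cells, which were shallower, 50.03% and 43.1%. With every cell thinned to 3000 UMIs, the Pkdcc shares were 16.5% and 11.8% of the Myod1 cells and 19.5% and 20.9% of all cells. A Prrx1 UMI was found in 38.02% and 42.6% of the Myod1 cells, and a UMI of Col1a2, a fibrillar collagen chain, in 83.8% and 82.6%. The complete gate was met by 0.599% and 1.03% of the Myod1 cells.

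Whether a cell met the gate followed its depth. Gate-positive cells made up 12.1% of library A (95% exact binomial interval 11.4 to 12.8) and 7.49% of library B (6.98 to 8.03), intervals that cover counting error only. Among cells with at least 10000 UMIs the shares were 13.3% and 12.9%, with overlapping intervals (12.5 to 14.0 and 12.1 to 13.8). In library B, which had 49.0% of its barcodes under 3000 UMIs against 16.2% in A, cells of 3000 to 5000 UMIs met the gate in 0.316% of cases. Cells of 40000 UMIs or more met it in 24.1% of cases in A and 24.2% in B. When every cell was thinned to 3000 UMIs, 33 cells of A (0.369%) and 18 cells of B (0.185%) met it.

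**Figure D1:**
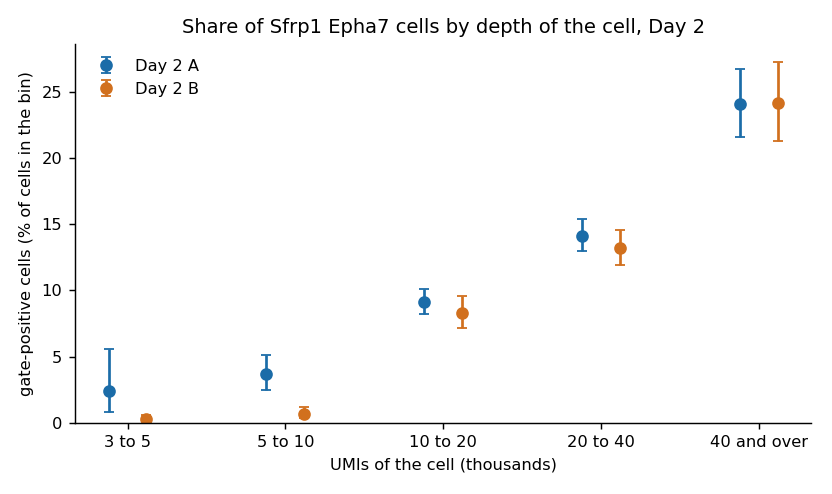
Share of filtered Day 2 cells that met the gate (y axis, percent) in 5 bins of UMIs per cell (x axis), for library A (blue) and B (orange). Bars are 95% exact binomial intervals. The share rises with depth in both libraries, to 24.1% and 24.2% at 40000 UMIs or more.

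Gate-positive cells accordingly had a median of 26920 UMIs in A and 28764 in B, against 18807 and 11300 in the other cells. They held 5387 and 5574 genes per cell at the median, against 4500 and 3438. Their mitochondrial share was 1.84% and 2.22%, against 1.86% and 2.20%. Results are therefore given against all other cells first and then against other cells of the same library drawn to the same depths (1080 and 730 cells, medians 26914 and 28760 UMIs) that also had under 2 Acan UMIs, called the matched cells. Libraries A and B shared 16 filtered barcodes, of which 2 in A and 0 in B were gate-positive.

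Against all other cells, 788 of 16876 genes tested were higher in the gate-positive cells (4.67%) and 1252 were lower (7.42%), at a Benjamini-Hochberg adjusted p under 0.05 and a log2 fold change of at least 0.25 in the quasi-likelihood test of edgeR, in which the library was a covariate. The median log2 fold change of all genes tested was -0.00075. Against the matched cells, 1064 of 14631 genes were higher (7.27%) and 1379 were lower (9.43%). Of the 788 genes called higher, 519 were also called higher against the matched cells, which is 65.9% of the first list and 48.8% of the second. Of the 1252 called lower, 794 were shared (63.4% and 57.6%). The 2 fits share the gate-positive sums. In the fit against all other cells the spread was shared over genes, with a median of 52.2 prior degrees of freedom. The standard errors (SE) and p-values below are therefore not the spread between the 2 cultures. Each gene had 1 residual degree of freedom, and a fit that kept library B alone or library A alone at Day 2, with the spread taken from later days, called 238 and 287 genes. With the gate applied after thinning, 582 genes were called.

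Limb patterning genes moved both ways. Of 47 tested, 18 were higher and 12 lower (median 0.15), and 21 and 10 of 46 against the matched cells. Meis2, a homeobox gene of the proximal limb, had the largest increase of the genes named by the selection rule: 114 CPM in A and 146 in B, against 53.3 and 68.0, a log2 fold change of 1.10 ± 0.027 (SE, n = 2 libraries, adjusted p = 4.99e-39). Its paralogue Meis1 stood at 27.2 and 27.8 CPM against 12.7 and 13.1 (1.10 ± 0.054). Both genes kept the direction against the matched cells, at 0.81 and 0.86.

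Shox2, a homeobox gene needed for the upper arm bone, stood at 188 CPM in A and 215 in B, against 123 and 136 in the other cells (0.64 ± 0.022). Prrx1 stood at 578 and 617 CPM against 460 and 474 (0.35 ± 0.016). The T-box genes Tbx15 and Tbx3 had log2 fold changes of 0.40 and 0.46, although Tbx3 was lower at -1.40 with the gate applied after thinning. The Iroquois gene Irx3 had 0.71, although it changed sign, without a call, with the gate applied after thinning. The nuclear receptor gene Nr2f1 had 0.88. For every gene of this group that is named here, both gate-positive values lay above both values of the other cells. Tshz1 (0.64) and Mab21l2 (0.66), developmental regulators outside the list, were among the 15 genes that the rule placed at the upper end.

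Of the Hox genes, those at the 5' end of the clusters pattern the hand plate. Of 13 Hox genes tested, 7 were lower and 1 higher (median -0.26), and against the matched cells 5 of 11 were lower and 1 higher. Hoxd13, the last gene of its cluster and a marker of the autopod, stood at 13.3 CPM in A and 12.7 in B against 34.9 and 33.0 (-1.38 ± 0.054, adjusted p = 3.60e-29). Hoxa13 stood at 8.47 and 6.84 CPM against 25.4 and 23.7 (-1.67 ± 0.068). The difference was smaller for Hoxd12 (-0.75) and Hoxd11 (-0.36), and the single Hox gene that was higher was Hoxd9, at 42.6 and 40.9 CPM against 30.1 and 30.2 (0.47 ± 0.041). Hoxa11os, the transcript antisense to Hoxa11, was lower at -1.003 ± 0.034. Reads of Hoxa11os and Hoxa11 overlap in the genome and are kept apart only by strand.

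Among the 12 lower limb patterning genes, Msx1, a homeobox target of BMP signalling, stood at 12.3 and 9.34 CPM against 25.01 and 25.8 (-1.20 ± 0.066). Sall1, a zinc finger gene mutated in Townes-Brocks limb defects, stood at 5.02 and 4.65 CPM against 13.4 and 14.6 (-1.51 ± 0.086). Lhx2, a LIM homeobox gene that relays signals from the apical ridge, was lower at -0.79. All 3 stayed lower against the matched cells, at -1.03, -1.19 and -0.45.

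**Figure D2:**
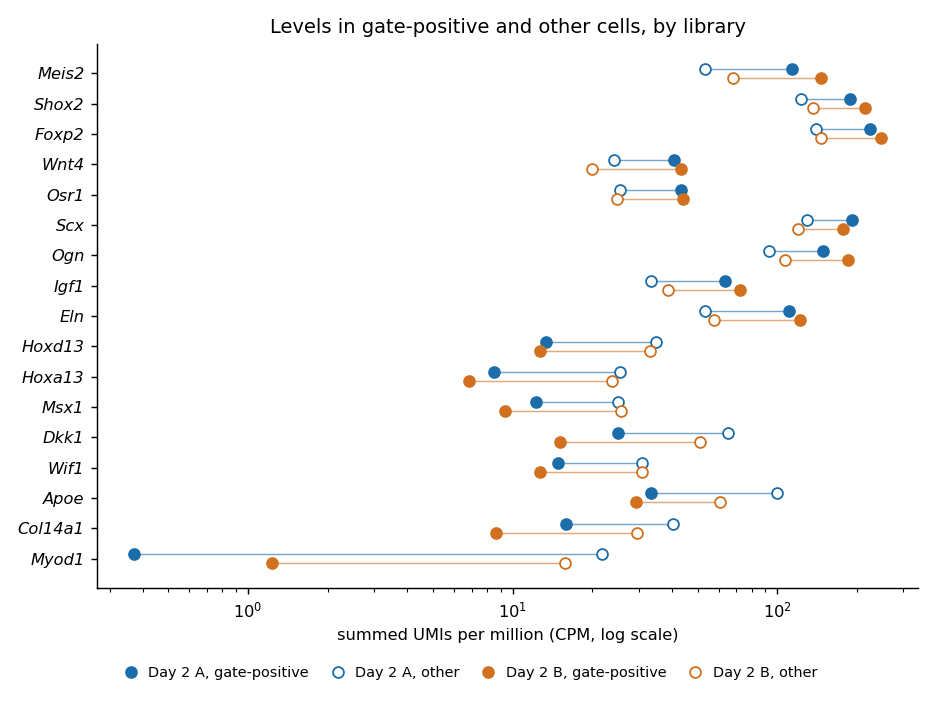
Level of 17 genes (x axis, CPM on a log scale) in gate-positive cells (filled) and all other cells (open) of Day 2 library A (blue) and B (orange). Lines join both classes of a library. Meis2, Shox2, Foxp2, Wnt4, Osr1, Scx, Ogn, Igf1 and Eln lie to the right in gate-positive cells and the other 8 genes to the left, in both libraries.

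Among Wnt antagonists other than Sfrp1, 2 of 13 tested were higher and 5 lower (median -0.057), and 4 and 3 of 12 against the matched cells. Sfrp2, the close relative of Sfrp1, stood at 344 CPM in A and 301 in B against 273 and 233 (0.35 ± 0.019). Sostdc1, which blocks both Wnt and BMP ligands, was higher at 61.4 and 59.3 against 41.3 and 42.3 CPM (0.53). Dkk1, which blocks the LRP co-receptors, stood at 25 and 15.1 CPM against 65.0 and 50.9 (-1.51 ± 0.048), and only 12.04% and 10% of gate-positive cells held a Dkk1 UMI. Wif1, a secreted Wnt-binding factor, stood at 14.8 and 12.7 CPM against 30.7 and 30.7 (-1.14 ± 0.056), and Dkk2 was lower at -0.55.

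Of 11 Wnt ligand genes tested, 2 were higher and 2 lower (median -0.16), and 2 and 1 of 8 against the matched cells. Wnt4, a ligand of joints and of perichondrial tissue, stood at 40.8 CPM in A and 43.2 in B against 24.2 and 20.03 (0.91 ± 0.050, adjusted p = 1.55e-22), and at 1.12 against the matched cells. With the gate applied after thinning Wnt4 changed sign and was not called. Of the 24 receptors and co-receptors, 4 were higher and 5 lower (median 0.0062), and 7 and 5 of 23 against the matched cells. Fzd8, a Frizzled receptor, had 0.57, and Ror1, a receptor for Wnt5a, had 0.67. Lgr4, a receptor for R-spondins, stood at 20.2 and 20.5 CPM against 33.1 and 34.6 (-0.73), whereas Rspo2, one of these R-spondins, stood at 3.19 and 4.03 against 1.73 and 1.89 CPM (0.98).

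No gene of the 13 tested downstream Wnt genes was higher and 4 were lower (median -0.18). Lef1, a transcription factor that acts with beta-catenin and is itself a Wnt target, stood at 9.52 and 11.8 CPM against 18.9 and 19.7 (-0.87 ± 0.066). Tcf7, its relative, was at 0.806 and 0.570 against 1.77 and 1.56 CPM (-1.25). Against the matched cells 1 gene of 12 was higher and 3 were lower.

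Of the Eph receptors other than Epha7, 3 of 11 were higher and 1 lower (median 0.17), with the same counts among 10 against the matched cells. Epha5, of the same A class, stood at 23.4 CPM in A and 25.6 in B against 11.9 and 14.1 (0.92 ± 0.056). Ephb1, of the B class, was at 2.45 and 4.52 against 1.41 and 1.69 CPM (1.12). Epha3 was the receptor that was lower, at 15.1 and 16.0 against 19.6 and 21.1 CPM (-0.39). Of the 8 ephrins, the membrane-bound ligands, 1 was higher and 1 lower (median 0.19), and 3 and 0 against the matched cells. Efnb3 was the higher one, at 17.2 and 17.1 against 12.2 and 11.5 CPM (0.52).

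Fibrous and perichondrial genes were mostly higher. Of 19 tested, 11 were higher and 1 lower (median 0.33). The summed level was 3621 and 3828 CPM in gate-positive cells against 2830 and 2901 CPM in the others. That sum covers 20 genes, as it includes 1 gene of the rule or markers that got no test. Col1a2 stood at 444 and 487 CPM against 319 and 325 (0.53 ± 0.018), and Col3a1 at 309 and 355 against 213 and 245 (0.54 ± 0.019). Col12a1 was higher at 0.48, and the forkhead genes Foxp1 and Foxp2, known in the perichondrium, at 0.53 and 0.71. Foxp2 was seen in 87.9% and 88.6% of gate-positive cells.

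Against the matched cells the same list gave 5 higher and 4 lower of 19 (median 0.13), with Foxp2 at 0.89 and Col1a2 at 0.36. The gene of the list that was lower against all other cells was Col14a1, which encodes a fibril-associated collagen, at 15.9 and 8.64 against 40.2 and 29.5 CPM (-1.48 ± 0.060), and it had -0.92 against the matched cells. Runx2, the regulator of bone formation, was higher at 0.35, and at 0.51 against the matched cells. Of the small leucine-rich proteoglycans other than Lum, 3 of 12 were higher and 4 lower (median -0.054), and 6 and 1 of 11 against the matched cells. Ogn (osteoglycin) stood at 149 and 185 CPM against 93.5 and 107 (0.73 ± 0.025). Aspn (asporin) stood at 51.0 and 59.8 against 28.6 and 34.0 CPM (0.83 ± 0.037). Eln, which encodes elastin, was at 111 and 122 against 53.3 and 57.7 CPM (1.07 ± 0.028).

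The direction of the cartilage genes depended on the cells of comparison. Against all other cells, 18 of 22 were lower and 0 higher (median -0.62), and their summed level including Acan was 2314 and 2374 CPM against 3054 and 3432 CPM. Against the matched cells, which like the gate-positive cells had under 2 Acan UMIs, 17 of 21 were higher and 0 lower (median 0.47). With depth matching alone, 1 of 22 was higher and 14 were lower (median -0.42), where 893 of all 14598 genes were higher and 1193 lower. With the Acan limit alone 5 were higher and 3 lower (median 0.03), where 784 of all 16599 genes were higher and 1288 lower. Col2a1, the main collagen of cartilage, stood at 427 and 438 CPM in gate-positive cells against 643 and 744 in all other cells (-0.67 ± 0.020), and had a log2 fold change of 0.44 ± 0.029 against the matched cells. Sox9, the master regulator of cartilage, moved from -0.35 to 0.36, Col9a1 from -0.46 to 0.47, Col9a3 from -0.60 to 0.49 and Matn4 from -0.91 to 0.40. The Acan limit is part of the rule, so the lower values against all other cells include what the rule removed. Hapln1, which links aggrecan to hyaluronan, stood at 6.64 and 8.33 against 24.7 and 33.2 CPM (-1.94), and at -0.098 (adjusted p = 0.602) against the matched cells.

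**Figure D3:**
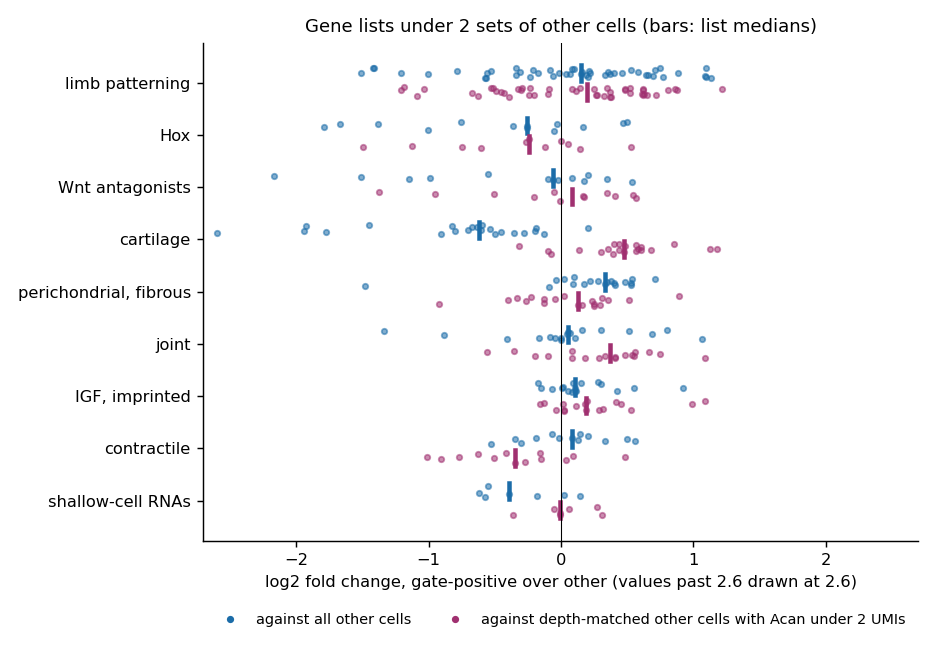
Log2 fold change of each tested gene of 9 lists (points) with the list median (bars), for gate-positive cells against all other cells (blue) and against depth-matched other cells with Acan under 2 UMIs (purple). Cartilage genes lie left of 0 in the first comparison and right of 0 in the second, with medians of -0.62 and 0.47, and the Hox median is below 0 in both. 1 value lies past the axis limit and is drawn at the limit.

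Genes of tendon and joint differed among themselves. Scx, the transcription factor of tendon progenitors, stood at 191 CPM in A and 177 in B against 130 and 120 (0.56 ± 0.023). It changed sign, without a call, with the gate applied after thinning. At least 2 Scx UMIs were found in 72.2% and 68.5% of gate-positive cells against 50.9% and 50.8% of depth-matched other cells. Unlike the matched cells, the depth-matched other cells were drawn with no Acan limit. Scx was the single higher gene among 10 tendon genes, of which 2 were lower (median -0.050), and 2 of 9 were higher and 3 lower against the matched cells. Tnmd, a product of more mature tendon cells, had a UMI in 11.3% and 13.2% of gate-positive cells against 10.6% and 13.6% of depth-matched other cells. Of 18 joint genes, 5 were higher and 3 lower (median 0.050), and 9 and 1 against the matched cells. Osr1, an odd-skipped gene of joints and connective tissue, stood at 43.4 and 44.1 against 25.5 and 24.7 CPM (0.80 ± 0.042). Sulf1, an extracellular sulfatase that edits heparan sulfate, was higher at 0.51.

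Of 29 BMP and TGF-beta genes, 12 were lower and 3 higher (median -0.19), and 9 and 3 of 28 against the matched cells. Nog, which encodes the BMP antagonist noggin, stood at 24.9 and 15.04 CPM against 53.0 and 50.9 (-1.34 ± 0.060). In the neighbouring set of cells with at least 2 Acan UMIs, which the rule left out, Nog stood at 163 and 154 CPM. Gdf10, a TGF-beta family ligand, was at 11.1 and 10.4 against 30.7 and 32.1 CPM (-1.54 ± 0.058). Id2, a direct target of BMP signalling, stood at 171 and 170 CPM against 226 and 226 (-0.40). Tgfbr2, the type II receptor for TGF-beta, was among the 3 that were higher (0.46). Of 18 FGF genes, 7 were lower and 2 higher (median -0.20), and 8 and 5 against the matched cells. Fgfr3, the receptor of cartilage cells, was lower at -1.34 but at -0.24 (adjusted p = 0.0946) against the matched cells.

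Of 11 Hedgehog genes, 2 were higher and 2 lower (median 0.025), and 5 and 1 against the matched cells (median 0.27). Ihh, the ligand of maturing cartilage cells, stood at 0.962 and 0.965 CPM against 6.43 and 7.497 (-2.83 ± 0.15), and had -1.09 ± 0.28 against the matched cells. Of 12 Notch genes, 5 were lower and 1 higher (median -0.35), and 5 and 2 of 11 against the matched cells. Of 13 retinoic acid genes, 3 were higher and 2 lower (median 0.067), and 4 and 2 against the matched cells. Crabp2, which carries retinoic acid to its receptors, stood at 184 and 169 CPM against 127 and 118 (0.53 ± 0.023). The enzymes Aldh1a2 and Rdh10, which make retinoic acid, were lower at -0.69 and -0.52.

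Of 17 genes of the IGF system and imprinted genes, 5 were higher and 0 lower (median 0.11), and 7 and 0 against the matched cells. Igf1, a growth factor made by mesenchyme, stood at 63.3 CPM in A and 72.5 in B against 33.3 and 38.6 (0.92 ± 0.034). Igfbp5, which binds IGFs, stood at 856 and 779 against 631 and 591 CPM (0.42 ± 0.015). The paternally expressed genes Mest and Peg3 had smaller log2 fold changes of 0.28 and 0.30, and Rtl3, a gene derived from a retrotransposon, had 0.55. Igf2 was at 1254 and 1301 against 1242 and 1289 CPM (0.01, adjusted p = 0.513).

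Of 23 genes of cell adhesion and condensation, 2 were higher and 3 lower (median 0.015), and 6 and 6 against the matched cells. Ncam1, an adhesion molecule of condensing mesenchyme, was lower at 58.7 and 53.4 against 82.8 and 82.8 CPM (-0.56 ± 0.032). Of the genes named by rule outside all lists, Sema5a (a semaphorin, 0.83), Rflnb (a refilin that binds filamin, 0.77), L3mbtl3 (a chromatin reader, 0.73), Fbxl7 (an F-box protein, 0.64) and Spint2 (a protease inhibitor, 0.64) were higher. Apoe, which encodes a lipid carrier, was lower at 33.4 and 29.2 against 99.5 and 60.7 CPM (-1.37 ± 0.049). An Apoe UMI was nevertheless found in 49.1% and 44.5% of gate-positive cells and in 38.9% and 28.3% of the other, shallower cells. Mef2c (-0.71), Zeb2 (-0.63) and Jdp2 (-0.58), all transcription factors, and the cell cycle inhibitor gene Cdkn1a (-0.56) were lower too. The remaining genes of the lower end were the cartilage genes Sox6 (-0.70) and Col9a2 (-0.63).

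Of 18 G2 and M phase genes, 2 were higher and 0 lower, and 0 and 0 against the matched cells. Among 16 S phase genes, 0 were called against all other cells in edgeR, and 1 was higher and 1 lower against the matched cells. Top2a had a UMI in 62.6% and 65.6% of gate-positive cells and in 63.1% and 66.8% of depth-matched other cells. Within the band of 10000 to 20000 UMIs, among cells with Acan under 2 UMIs, 13 of 18 G2 and M phase genes were lower in cells past the Sfrp1 limit of the gate (median -0.33) and 14 in cells past the Epha7 limit (median -0.28), where 4.78% and 4.29% of all genes were lower. Within 20000 to 40000 UMIs the medians were 0.069 and 0.014.

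Muscle, immune and red cell markers were lower in the gate-positive cells than in all other cells, and other lists were mixed. The part of these markers in the other results was not tested. The 12 muscle-lineage genes summed to 37.4 and 55.8 CPM against 792 and 600 CPM, and all 12 were lower. Myod1, the muscle determination factor, had a UMI in 0.556% and 0.685% of gate-positive cells. The 10 immune genes summed to 2.48 and 2.499 CPM against 32.1 and 17.6 CPM, with 9 lower. The 7 red cell genes summed to 0.527 and 1.67 CPM against 70.4 and 174 CPM, with 6 of 6 tested lower. Only 1 red cell gene could be tested against the matched cells, and it was not called (-0.10). Endothelial genes gave 0 higher and 1 lower of 5 (0 and 2 of 4 against the matched cells), at 42.1 and 36.7 against 44.9 and 43.1 CPM. Epithelial genes gave 1 higher and 3 lower of 6, at 113 and 71.0 against 105 and 72.9 CPM, and 0 and 4 of 5 against the matched cells (median -1.02). Krt18 and Krt8, keratins of simple epithelia, held most of that sum, with Krt18 at 91.0 and 57.8 against 83.1 and 57.5 CPM. Trp63, a regulator of the epidermis, stood at 0.217 and 0.351 against 2.04 and 1.84 CPM (-2.83 ± 0.30). Neural and Schwann cell genes gave 1 higher and 3 lower of 6, at 17.0 and 10.8 against 21.6 and 21.1 CPM, and 0 and 1 of 4 against the matched cells. Of the defining markers, 1 gene each of the immune, endothelial, epithelial and red cell lists was at 0 in the gate-positive cells.

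RNAs that tend to take a larger share in shallow cells were counted as well. Of 7 such genes, 4 were lower and 0 higher (median -0.39). Against the matched cells 2 were higher and 1 lower (median -0.0072), where 7.27% of all genes were higher and 9.43% lower. The part of depth in these values was not tested. Lars2 was lower at -0.62, AY036118 at -0.58 and Gm42418 at -0.55 against all other cells, and they were at 0.06, -0.01 and -0.01 against the matched cells. Of 11 genes known to respond to tissue dissociation, 2 were higher and 2 lower (median 0.12). Egr1 stood at 560 and 584 CPM against 451 and 477 (0.30), and Fosb at 99.7 and 82.8 against 77.8 and 70.8 (0.30). Against the matched cells, 5 were higher and 2 lower.

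The gate joins an Sfrp1 limit and an Epha7 limit, and the cells with Acan under 2 UMIs were split by both to see which genes went with which limit. Library A gave 1080 cells past both limits, 1071 past the Sfrp1 limit alone, 1750 past the Epha7 limit alone and 3926 past neither, and library B 730, 696, 1663 and 5629. Cells past the Sfrp1 limit had 510 genes higher (3.32% of 15383) and 959 lower (6.23%). Cells past the Epha7 limit had 724 higher (4.71%) and 1071 lower (6.96%). The interaction of both limits called 147 genes above (0.956%) and 144 below (0.936%) the sum of both effects. Without the library as a covariate the interaction called 0 genes in edgeR. Muscle, immune and red cell markers were highest in the cells past neither limit, and epithelial Krt18 in those past the Sfrp1 limit alone, at 186 CPM in A and 127 in B against 77.6 and 60.5 past neither. The 12 muscle-lineage genes summed in A to 37.1 CPM past both limits, 162 past the Sfrp1 limit alone, 316 past the Epha7 limit alone and 1509 past neither, and in B to 55.2, 51.2, 213 and 1167 CPM. All 12 were lower on both sides (medians -3.10 and -2.02), as were 9 of 10 immune genes and 6 of 6 red cell genes. Immune genes summed to 66.5 and 34.6 CPM past neither limit and to 2.32 to 7.11 CPM in the other classes. The part of these markers in the results by limit was not tested.

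Contractile genes were lower past the Epha7 limit, and their direction past the Sfrp1 limit depended on depth. Over cells of every depth, 10 of 13 were lower and 0 higher past the Epha7 limit (median -0.46), and 10 were higher and 1 lower past the Sfrp1 limit (median 0.35). Cells past the Sfrp1 limit were deeper, so the fit was repeated within bands of depth, chosen after the data were seen. Among cells of 10000 to 20000 UMIs, 2 were higher and 5 lower past the Sfrp1 limit (median -0.12), where 3.84% of all genes were higher and 4.78% lower. Among cells of 20000 to 40000 UMIs 2 were higher and 3 lower (median 0.12), where 2.99% and 5.24% of all genes were. Past the Epha7 limit the bands gave 8 and 12 lower, with 1 higher in each (medians -0.58 and -0.64), where 4.29% and 6.35% of all genes were lower and 3.46% and 4.83% higher. Tagln, an actin-binding protein of smooth muscle and myofibroblasts, stood in library A at 1806 CPM past both limits, 3078 past the Sfrp1 limit alone, 1537 past the Epha7 limit alone and 1986 past neither, and in B at 1683, 2835, 1408 and 1904 CPM. The log2 fold changes were 0.43 for Sfrp1 and -0.58 for Epha7. Within the bands, Tagln had -0.52 ± 0.058 and 0.03 ± 0.061 for Sfrp1, and -0.84 ± 0.057 and -0.68 ± 0.061 for Epha7. Acta2, smooth muscle actin, had 0.37 for Sfrp1 and -0.66 for Epha7 over all depths, and for Sfrp1 -0.57 and -0.13 within the bands. Cnn1, calponin, had 0.51 and -0.48 over all depths. In the gate-positive cells as a whole, 3 of 13 contractile genes were higher and 3 lower than in all other cells (median 0.083). Against the matched cells 1 was higher and 8 lower (median -0.35), where 7.27% of all genes were higher and 9.43% lower. Tagln was at 1823 and 1699 CPM in the gate-positive cells against 1877 and 1684 CPM in all other cells (-0.01, adjusted p = 0.460). It was at -0.51 against the matched cells.

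Hoxd13 and Hoxa13 were lower past the Sfrp1 limit. Hoxd13 stood in A at 13.2 and 13.7 CPM in the cells past the Sfrp1 limit, with and without Epha7, and at 38.9 and 43.3 CPM in those below it. In B the values were 12.6 and 11.1 against 39.1 and 39.6 CPM. The log2 fold change was -1.66 for Sfrp1 and -0.05 for Epha7 (adjusted p = 0.499). Within the bands Hoxd13 had -2.39 and -1.46 for Sfrp1, and -0.46 and 0.02 for Epha7. Hoxa13 had -1.55 and -0.47. Hoxa11 had 0.04 for Sfrp1 (adjusted p = 0.499) and -0.35 for Epha7, at 29.0 CPM past both limits in A and 29.3 past the Epha7 limit alone, against 38.9 past the Sfrp1 limit alone and 35.9 past neither. In B the Hoxa11 values were 29.1 and 28.2 against 36.3 and 36.5 CPM. Of 11 Hox genes, 2 were higher and 5 lower on the Sfrp1 side, and 0 and 3 on the Epha7 side. Dkk1 (-1.44) and Wif1 (-0.98) were also lower on the Sfrp1 side.

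Wnt4 differed past the Epha7 limit. It stood in A at 40.4 CPM past both limits and 47.3 past the Epha7 limit alone, against 16.9 past the Sfrp1 limit alone and 19.3 past neither, and in B at 42.8 and 41.3 against 16.8 and 14.5 CPM. The log2 fold change was 1.36 for Epha7 and -0.06 for Sfrp1 (adjusted p = 0.617), and within the bands Wnt4 had 1.54 and 1.45 for Epha7. Osr1 had 0.87 and 0.25. Gdf5, the ligand that marks the joint interzone, had 0.59 for Epha7 and -0.65 for Sfrp1 over all depths. Among cells of 10000 to 20000 UMIs, with no Epha7 or Acan limit, Gdf5 stood in A at 37.45 plain CPM at 0 Sfrp1 UMIs. It stood there at 29.1, 33.1 and 32.4 CPM at 1, 2 and 3 Sfrp1 UMIs, and at 37.45 CPM at 4 or more. In B the Gdf5 values were 43.5, 37.6, 26.4, 33.1 and 50.4 CPM. At least 2 Gdf5 UMIs were found in 15.7% and 13.97% of gate-positive cells against 11.02% and 10% of depth-matched other cells. Of 18 joint genes, 6 were higher and 1 lower with Epha7, and 3 were higher and 5 lower with Sfrp1. In the bands, 5 and 7 joint genes were higher and 1 lower in each with Epha7, and 3 and 4 were higher and 4 and 3 lower with Sfrp1. Of all genes in the bands, 3.46% and 4.83% were higher and 4.29% and 6.35% lower with Epha7. With Sfrp1, 3.84% and 2.99% of all genes were higher and 4.78% and 5.24% lower. Of 13 retinoic acid genes, 5 were higher and 0 lower with Epha7, and 0 and 3 with Sfrp1. Within 10000 to 20000 UMIs, 3 of 12 were higher and 2 lower with Epha7, and 2 and 3 with Sfrp1 (median 0.13). Within 20000 to 40000 UMIs the counts were 5 and 0, and 2 and 3. Rarb, a retinoic acid receptor gene, had 0.39 and -0.58.

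**Figure D4:**
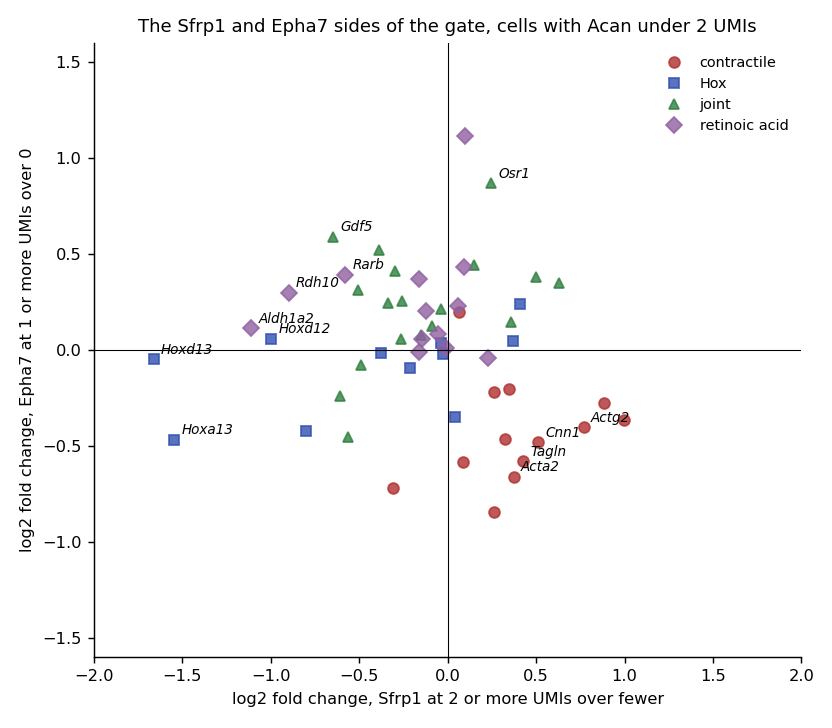
Log2 fold change past the Sfrp1 limit (x axis) and past the Epha7 limit (y axis) for tested genes of 4 lists, in Day 2 cells with Acan under 2 UMIs. Contractile genes (red circles) lie mostly at lower right, with Tagln at 0.43 and -0.58, and Hoxd13 lies at far left near 0 on the y axis. Within 10000 to 20000 UMIs Tagln had -0.52 and -0.84. Genes past the axis limits are not drawn.

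Meis2 was higher on both sides, at 1.01 for Sfrp1 and 0.64 for Epha7, with an interaction of -0.81 (adjusted p = 3.23e-06). By the same rule, the leading genes of the Sfrp1 side were Eln (1.15), Meis2, Krt18 (a keratin, 0.94), Spp1 (osteopontin, 0.88) and Prss23 (a serine protease, 0.65), and the lowest were Hes6 (-0.81), Hoxa11os (-0.80), Lars2 (-0.68), Cped1 (-0.66) and Zeb2 (-0.60). Lars2 had 0.073 within 10000 to 20000 UMIs. On the Epha7 side the leading genes were Foxp2 (0.71), Igf1 (0.70), Meis2, Shox2 (0.62) and L3mbtl3 (0.62). The lowest were Hspb1 (a small heat shock protein, -1.09), S100a6 (a calcium-binding protein, -0.84), Cdkn1a (-0.82), Tnfrsf12a (-0.82) and Nes (nestin, -0.74). Of 19 perichondrial and fibrous genes, 11 were higher and 1 lower on the Sfrp1 side, and 4 higher and 1 lower on the Epha7 side. In the bands, 10 and 7 were higher for Sfrp1, where 3.84% and 2.99% of all genes were. For Epha7 7 and 3 were higher, where 3.46% and 4.83% of all genes were. Cells past neither limit were shallower, with medians of 16810 UMIs in A and 6390 in B. Among cells with at least 10000 UMIs, which did not make the depths of the classes equal, Tagln had 0.41 and -0.59, Hoxd13 -1.69 and -0.06, and Wnt4 -0.02 and 1.40.

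The gate-positive cells were also set beside 3 neighbouring sets of the same libraries. These were cells with at least 2 Acan UMIs (Acan cells, 1031 and 938), cells with UMIs of both Hoxa13 and Msx1 (486 and 317) and cells with UMIs of both Emx2 and Sim2 (73 and 64), each without cells that met more than 1 of the rules. Their median depths in A and B were 18922 and 21567 UMIs (Acan cells), 21020.5 and 23540 (Hoxa13 Msx1 cells) and 34781 and 33191 (Emx2 Sim2 cells), so each comparison was repeated within the 2 bands of depth, where the Emx2 Sim2 cells numbered 12 and 10 in the lower band and 38 and 22 in the upper. In both bands the Emx2 Sim2 cells were under the minimum of 50 cells per set, so their band counts are a description. The genes that define a set are no finding in its comparison.

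Against the Acan cells, 1949 of 14938 genes were higher (13.0%) and 1820 lower (12.2%). All 22 cartilage genes tested were lower (median -2.22). The 2 sets lie on opposite sides of the Acan limit, so the lower cartilage values include what that limit chose, also within the bands. Col2a1 stood at 427 and 438 CPM against 2093 and 2342 CPM (-2.35 ± 0.061), and Sox9 at 309 and 311 against 778 and 860 CPM (-1.39 ± 0.053). Of 13 contractile genes, 11 were higher and 2 lower (median 1.601), with Tagln at 1823 and 1699 against 621 and 496 CPM (1.67). Of 19 perichondrial and fibrous genes 14 were higher and 1 lower (median 0.73), of 13 retinoic acid genes 9 were higher and 3 lower, and of 47 limb patterning genes 28 were higher and 13 lower. Within 10000 to 20000 UMIs, 9 contractile genes were higher and 2 lower (median 0.45), where 9.66% of all genes were higher and 9.74% lower, and Tagln had 0.58. Within 20000 to 40000 UMIs, 9 were higher and 1 lower (median 1.45), where 10.1% and 9.39% of all genes were, and Tagln had 1.46. All 22 cartilage genes were lower in both bands. Of 11 genes known to respond to tissue dissociation, 1 was higher than in the Acan cells and 6 lower (median -0.29). Of 7 RNAs of shallow cells, 0 were higher and 6 lower (median -0.43). The part of both lists in this comparison was not tested.

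By rule, the leading genes over the Acan cells included Gap43 (a growth-associated membrane protein, 2.604), Aspn (2.44), Cxcl14 (a chemokine, 2.28) and Crabp1 (2.08). Those at the other end were Hapln1 (-4.13), Col11a2 (-3.59), Susd5 (-3.49), Cytl1 (-3.42) and Nog (-2.97). Wnt4 stood at 40.8 and 43.2 against 10.997 and 9.56 CPM (2.03 ± 0.12), and Scx at 191 and 177 against 79.6 and 59.6 CPM (1.42 ± 0.067). Mest and Igf2 were lower than in the Acan cells, at -0.45 and -0.42.

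Against the Hoxa13 Msx1 cells, 1309 genes were higher (8.76%) and 1216 lower (8.14%). Of 10 immune genes 9 were lower (median -4.79), with a summed level in the Hoxa13 Msx1 cells of 42.2 CPM in A and 1.79 in B, against 2.499 and 2.52 CPM in the gate-positive cells, so that the difference lay in library A alone. Of 12 muscle-lineage genes 3 were lower. Their part in this comparison was not tested. Of 46 limb patterning genes, 20 were higher and 16 lower (median 0.18), where Msx1, which chose the set, was left out. Meis2 stood at 114 and 146 CPM against 15.9 and 9.06 (3.29 ± 0.16), Meis1 at 27.2 and 27.8 against 3.53 and 2.86 (3.09 ± 0.13), and Shox2 at 188 and 215 against 34.1 and 29.9 (2.64 ± 0.066). Hoxd13 stood at 13.3 and 12.7 against 120 and 118 CPM (-3.18 ± 0.098). Aldh1a2 stood at 15.1 and 13.0 against 127 and 199 CPM (-3.48 ± 0.16), and Dkk1 at 25 and 15.1 against 162 and 109 CPM (-2.74 ± 0.081).

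Of 17 IGF and imprinted genes, 14 were higher and 0 lower (median 0.67), with Dlk1 at 273 and 247 against 89.8 and 76.5 CPM. Of 19 perichondrial and fibrous genes, 11 were higher and 2 lower (median 0.45). Aspn (2.87), Eln (2.73) and Spp1 (2.31) completed the upper end by rule. Of 11 genes known to respond to tissue dissociation, 6 were higher and 2 lower (median 0.39), and their part was not tested. Sox9 was lower, at 309 and 311 against 374 and 372 CPM (-0.26 ± 0.056, adjusted p = 0.00348), and had -0.17 and -0.07 within the bands, under the limit for a call. Of 18 G2 and M phase genes 6 were lower in the gate-positive cells and 0 higher (median -0.22). In the lower band 15 were lower, where 8.37% of all genes were higher and 6.72% lower, and in the upper band 10, where 6.61% and 6.98% were.

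Against the Emx2 Sim2 cells, 788 genes were higher (5.28%) and 759 lower (5.08%). Of 6 red cell genes 5 were lower, with a summed level in the Emx2 Sim2 cells of 630 CPM in A and 1.397 in B against 0.531 and 1.68 CPM in the gate-positive cells, so that this difference too lay in A alone. Their part in the comparison was not tested. Here the gate-positive cells had the higher cartilage levels: of 22 genes 17 were higher and 0 lower (median 2.37). In the bands 11 and 14 were higher and 0 lower, where 1.78% and 3.36% of all genes were higher and 1.36% and 3.16% lower. Col2a1 stood at 427 and 438 against 77.2 and 56.3 CPM (2.69 ± 0.11). Mia (3.21), Col9a1 (3.11), Matn4 (3.07) and the forkhead gene Foxc1 (2.68) were the other leading genes. Of 29 BMP and TGF-beta genes 12 were higher and 0 lower (median 0.43). Of 11 genes known to respond to tissue dissociation, 5 were higher and 1 lower (median 0.52), and their part was not tested. Tac1, which encodes substance P, stood at 5.27 and 8.46 against 83.5 and 85.7 CPM (-3.65 ± 0.17), and Cited1 (-2.04) and Pcdh17 (-1.96) were lower by rule. Shox2, Dlk1 and Col3a1 were lower in the gate-positive cells, at -1.15, -1.78 and -1.30.

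**Figure D5:**
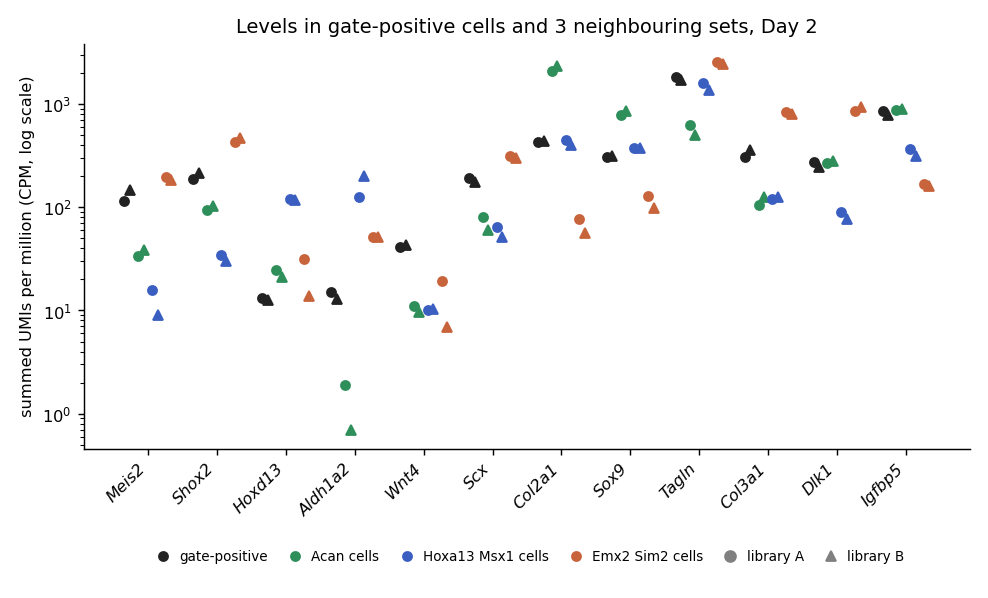
Level of 12 genes (y axis, CPM on a log scale) in gate-positive cells (black), Acan cells (green), Hoxa13 Msx1 cells (blue) and Emx2 Sim2 cells (orange) of library A (circles) and B (triangles). For Col2a1 the gate-positive cells, at 427 and 438 CPM, lie below the Acan cells and above the Emx2 Sim2 cells, and for Wnt4 they lie above the 3 other sets.

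The values of cells just inside and just outside the limits are given as a description, in plain CPM. Cells with exactly 2 Sfrp1 UMIs had Hoxd13 at 19.6 CPM in A and 14.0 in B, and cells with 1 Sfrp1 UMI that met the other limits had 28.1 and 26.2 CPM. Cells with exactly 1 Epha7 UMI had Tagln at 2213 and 1949 CPM, and those with 0 had 2966 and 2778 CPM. Members with 1 Acan UMI had Col2a1 at 970 and 822 CPM, and cells left out with 2 Acan UMIs had 1400 and 1446 CPM.

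Among cells of 10000 to 20000 UMIs, with no other part of the gate applied, Hoxd13 went from 62.9 CPM in A and 63.5 in B at 0 Sfrp1 UMIs to 2.69 and 9.88 CPM at 4 or more. Mest went from 751 and 688 to 1398 and 1192 CPM, and Tagln from 684 and 870 to 359 and 236 CPM. The share of cells with an Epha7 UMI went from 26.5% and 24.9% to 49.8% and 49.6%. The share with at least 2 Acan UMIs, which the gate leaves out, went from 13.6% and 14.3% to 23.0% and 27.6%. The part of these Acan cells in the values above was not tested.

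The genes whose pattern over cells was most like that of Sfrp1 were found by Spearman correlation after every cell was thinned to 3000 UMIs, averaged over both libraries among 3927 genes. They were Mest, Igfbp5, Mia, Pmp22, Vcan, Gpc3, Egr1, Col1a2, Igf2 and Peg3. The highest mean coefficient was 0.112 and the tenth 0.0804. The cells share libraries and the thinned counts are sparse, so coefficients of this size are a description only.

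Few cells met the same limits later. Library A of Day 7 held 26 of 9355 cells and library B 31 of 9373 (0.278% and 0.331%). The Day 10 libraries held 30 of 8350 and 36 of 8357 (0.359% and 0.431%), where the Day 2 shares were 12.1% and 7.49%. Median depth was 19537 and 18350 UMIs in the Day 7 libraries, 29354 and 27884 in those of Day 10, and 19463 and 12899 in those of Day 2. No later library reached 50 gate-positive cells, so the gate-positive profile was not compared between days.

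Over the whole cultures Sfrp1 was measured, in A and B, as 48.0 and 43.0 CPM (Day 2), 19.2 and 21.8 (Day 7), and 9.94 and 9.45 (Day 10). Epha7 stood at 26.0 and 27.1, then 7.32 and 8.32, then 7.01 and 5.73 CPM. Acan stood at 24.0 and 33.1 CPM in the Day 2 cultures and at 1112 and 1037 CPM in the separate Day 7 cultures. At 20000 to 40000 UMIs, 13.3% and 19.7% of Day 2 cells had at least 2 Acan UMIs, which the gate leaves out. These shares were 81.9% and 79.6% at Day 7, and 56.1% and 57.0% at Day 10. Fewer such cells and less RNA per cell cannot be told apart in whole-culture sums.

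Between Day 2 and Day 7, 6161 of 18929 genes were higher (32.5%) and 5926 lower (31.3%), and between Day 2 and Day 10, 6853 were higher (36.2%) and 6846 lower (36.2%). Genes that were high in the gate-positive cells differed in their later course. Meis2 stood at 55.5 and 68.1 CPM at Day 2, and 17.5 and 20.7 at Day 10 (-1.69, adjusted p = 9.13e-07). Foxp2 (-1.41) and Shox2 (-1.64) were lower at Day 10 as well. Ogn stood at 90.2 and 102 CPM at Day 2 and 473 and 499 CPM at Day 10 (2.34), and Aspn (3.33) and Eln (1.32) were higher too. Lum went from 24.7 and 25.7 CPM to 182 and 193 CPM, whereas Pkdcc was at 93.1 and 91.7 and then 95.4 and 89.9 CPM.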

How the data were processed

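The deposited files hold UMI counts per gene and barcode for 6 libraries, 1 sparse matrix each. The authors made these counts with Cell Ranger 6.1.2 and STAR on GRCm38 (mm10), before the Seurat 4.1.0 filters, as far as the submitters' processing notes and the methods state. Gene coordinates came from a GRCm38 annotation, and all 518 genes looked up were found.

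Barcodes with at least 3000 UMIs, at most 7500 genes and at most 25% mitochondrial UMIs were kept, which left 206448286 UMIs in library A and 166797398 in library B at Day 2. Counts were summed per library and set of cells, and tested with edgeR 4.0.16 (filterByExpr, TMM factors, quasi-likelihood test, library as covariate), with Benjamini-Hochberg adjustment over all genes tested. Levels are CPM with TMM factors unless called plain, and levels of the neighbouring sets were scaled in the fit of those sets. SE was taken as the log2 fold change over the square root of F. It uses spread shared over genes and is not the spread between libraries A and B. The fit script was tested on simulated data. DESeq2 1.42.0 was an alternative. Bands of 10000 to 20000 and 20000 to 40000 UMIs and the matched cells were chosen after seeing the data. No doublets were called or removed.

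The members and gene lists were chosen with earlier results of these data known. Named genes were the rule and marker genes, genes of counted lists, and the 15 highest and 15 lowest called genes (5 and 5 in other comparisons) with at least 50 CPM and a UMI in at least 25% of cells in both libraries of one set, with the same sign in both. Of these, 1 gene is not reported here. Genes most like Sfrp1 were the 10 with the highest mean Spearman coefficient among genes with a UMI in at least 10% of thinned cells.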

Additional observations from a re-analysis of the deposited data

How the results depend on the processing

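The count of 2040 genes called between gate-positive and other cells became 696 with a log2 fold change limit of 1, 866 with DESeq2's Wald test, 903 without the library as replicate block and 582 with the gate applied after thinning, and ranged from 238 to 287 with 1 Day 2 library left out. With a limit of 1, the Sfrp1 side gave 467 genes (1469 as reported), the Epha7 side 415 (1795), the interaction 61 (291), the Acan cells 1177 (3769), the Hoxa13 Msx1 cells 811 (2525), the Emx2 Sim2 cells 592 (1547), Day 7 5265 (12087) and Day 10 6727 (13699). The interaction gave 142 with DESeq2, 603 without the expression filter and 0 without the replicate block. The share of gate-positive cells became 0.369% and 0.185% after thinning, and 13.3% and 12.9% from 10000 UMIs.

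Of 86 named genes tested with the thinned gate, which held 33 and 18 cells, 36 kept their call and direction and 14 changed sign: Irx3 (-0.24), Tbx3 (-1.40), Wnt4 (-0.026), Scx (-0.087), Ncam1 (0.057), Gm42418 (0.23), AY036118 (0.12), Lars2 (0.29), Col9a2 (0.073), Col2a1 (0.31), Sox6 (0.056), Matn4 (0.18), Sox9 (0.0062) and Col9a1 (0.30). Tbx3 alone of these was past the threshold there. Against the matched cells with Acan under 2 UMIs, 74 of 93 stayed the same in call and direction, 9 lost their call and 2 gained one. The remaining 8 changed sign: Col9a3 (0.49), Col9a2 (0.40), Col2a1 (0.44), Sox6 (0.14), Matn4 (0.40), Sox9 (0.36), Col9a1 (0.47) and Lars2 (0.059). Without the depth matching but with the Acan limit, Col9a3 (0.19), Col2a1 (0.080) and Col9a1 (0.041) did, and with depth matching alone Lars2 (0.050) did. Tagln changed sign with Sfrp1 at 3 or more UMIs (0.068) and, over fits that left out 1 library, ranged from -0.040 to 0.015. Over single libraries, Wnt4 on the Sfrp1 side ranged from -0.24 to 0.11, and on the Epha7 side Hoxd13 from -0.045 to 0.13 and Pax1 from -0.18 to 0.41. Within bands of depth, chosen after seeing the data, the Epha7 side gave 965 genes and the interaction 22 at 10000 to 20000 UMIs, and the interaction 173 at 20000 to 40000. The Acan cells gave 2348 in the lower band, and the Emx2 Sim2 cells 380 and 885. On the Sfrp1 side Tagln (-0.52), Acta2 (-0.57), Cnn1 (-0.32), Myl9 (-0.12), Cd44 (-0.32), Nr2f1 (-0.020) and Lars2 (0.073) changed sign in the lower band, and Acta2 (-0.13), Wnt4 (0.17) and Fgf18 (0.012) in the upper. On the Epha7 side Epha3 (-0.061) did in the lower band, and Hoxd13 (0.017) and Pax1 (-0.28) in the upper. Tagln and Acta2 on the Sfrp1 side were past the threshold in the lower band. Beyond the matching and the Acan limit themselves, the cause was not tested.

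The replicate letters did not pair cultures across days (correlations of deviations -0.062, -0.11 and -0.035 over 7813 genes). With the letter as a replicate block, Day 7 gave 11987 genes and Day 10 gave 13598. Leaving out 1 library left the neighbouring sets with no residual degrees of freedom. The fit of the 2 limits was not repeated with 1 library. Only signs were compared for the neighbouring sets and the 2 limits. The comparison of the gate-positive profile by day was not run. Of the gate-positive cells, 397 of 1080 in A and 280 of 730 in B had exactly 2 Sfrp1 UMIs, and 516 and 349 had exactly 1 Epha7 UMI, which limits how sharply the gate divides cells.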
